A study of Mus musculus with 180 samples.

Results

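The genes described are 34 genes of glycolysis and of the response to low oxygen, taken by their symbols from the 45070 genes of the deposited table. Glycolysis turns glucose into pyruvate and lactate in the cytosol, and macrophages activated by bacterial lipopolysaccharide (LPS) are known for leaning on it. The transcription factor HIF-1, whose α subunit is made from Hif1a, is hydroxylated by oxygen-dependent prolyl hydroxylases and then degraded. In low oxygen or after LPS it accumulates and switches on many glycolytic genes as well as targets such as Ndrg1 and Kdm3a. PI3K and mTOR are kinases of the growth factor and nutrient pathway that are known to raise both HIF-1α synthesis and glucose use, while inhibition of the respiratory chain makes cells depend more on glycolysis.

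Macrophages were grown in culture from the bone marrow of wild-type mice and were given 1 of 58 clinical kinase inhibitors (CKIs) or the vehicle DMSO for 1 h and then LPS at 10 ng/mL for 2 h, with the CKI or DMSO as the only planned difference between groups. The 180 samples comprise 3 of every CKI and 6 of DMSO, labelled as 2 sets of 3. All groups received LPS, and macrophages without LPS were not analysed here. The concentration of each CKI was chosen from its binding to its intended target and so differs between CKIs. The question taken here is how each CKI changed the transcripts of these genes, with PI3K and mTOR CKIs and Mubritinib in front.

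BGT226, Omipalisib, Apitolisib and PF04691502 are known as inhibitors of PI3K and mTOR together, AZD2014 as an inhibitor of mTOR, AZD8186 of PI3Kβ and PI3Kδ, and TG100115 of PI3Kγ and PI3Kδ. Mubritinib was developed against ERBB2 and is also known to inhibit complex I of the respiratory chain. The study itself used several of these CKIs for another target that they bind, such as Apitolisib for JAK1, AZD2014 for PFKP and Mubritinib for MINK1, so the grouping by PI3K and mTOR follows their known targets. Values are the authors' normalized read counts, called normalized values below, whose totals per sample lay between 9477340 and 12273349. Each CKI was compared with the same 6 DMSO samples, so the comparisons are not independent of each other. The test was limma on log2(normalized value + 1), where the added 1 shrinks the fold changes of genes with low values, and a gene was called higher or lower at a Benjamini-Hochberg adjusted p under 0.05 over the 12714 genes with a mean of at least 10. Of the 34 genes, 31 were tested. Egln3, Vegfa and Ankrd37 fell under the filter, with 2 to 10, 1 to 2 and 2 to 12 normalized values in the DMSO samples. With no filter, Ankrd37 was called higher with Omipalisib, at 12 to 21 (log2 fold change 1.30, adjusted p = 0.0481, where 7.51% of all genes were higher), and lower with Mubritinib against Omipalisib (−1.63, adjusted p = 0.0473, where 3.48% were lower). Ankrd37 overlaps Ufsp2 on the other strand, whose DMSO mean of 174 exceeds its own of 6.83, so its reads are uncertain. In whole cultures, fewer cells with a transcript and less of it per cell cannot be told apart.

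Among the hypoxia targets, Kdm3a and Ndrg1 rose with 4 of the 5 CKIs that are known to inhibit mTOR, and Mxi1 rose with 3 of them. CKIs of other classes raised these genes too. Kdm3a was called higher with Filgotinib (log2 fold change 0.79) and Ndrg1 with Afatinib (0.98). Mxi1 was called higher with Midostaurin (0.84) and Lenvatinib (0.75). Hif1a itself fell with all 5 CKIs that are known to inhibit mTOR, and Pdk1 fell with AZD2014, to 0.237 times its DMSO mean. Most glycolytic enzymes stayed under the threshold with these CKIs, apart from hexokinase genes, which rose with BGT226 and Omipalisib, Pfkp, which rose with Omipalisib, Ldha, which fell with BGT226 and Omipalisib, Aldoa, which rose with AZD2014, and a set of 6 enzymes that rose with Apitolisib. The calls of Ldha, of Aldoa with AZD2014 and of the 6 enzymes with Apitolisib were each lost under several alternatives given below. Those of Hif1a were lost under 12 alternatives with PF04691502, 6 with Apitolisib and 2 with BGT226. Hif1a also had a log2 fold change of −0.75 with AZD8186, called lower there when blocked on the replicate number. It was called lower with 9 CKIs outside the 8 as well. With Mubritinib 1 of the 31 genes changed, Pfkfb3, which fell.

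Of the 31 tested genes, BGT226 raised 6 (19.4%, against 24.1% of all genes tested) and lowered 3 (9.68%, against 6.32%). Omipalisib raised 7 (22.6%, against 17.5%) and lowered 2 (6.45%, against 8.16%). With Apitolisib 7 were higher, against a background of 12.7%, and 1 was lower (3.23%, against 3.2%). PF04691502 raised 3 (9.68%, against 8.86%) and lowered 1, where 4.22% of all genes were lower. AZD2014 raised 5 (16.1%, against 6.06%) and lowered 2, where 13.5% of all genes were lower. AZD8186 changed 0 in either direction by limma, against 0% of all genes called higher and 0.228% called lower, with 3 of the 31 genes and 887 of all genes at an unadjusted p under 0.05. TG100115 also changed 0 by limma, against 0.0236% called higher and 0% called lower, with 9 of the 31 and 3322 of all genes at an unadjusted p under 0.05. Mubritinib raised 0 by limma, against 1.08%, and lowered 1 (3.23%, against 0.763%), with 2 of the 31 and 1692 of all genes at an unadjusted p under 0.05. For BGT226, Omipalisib and PF04691502 the shares lie near those of all genes, so the counts as such are no result about the group, and the genes are described below by their own values. Over the 31 genes the median log2 fold change came to 0.12 with BGT226, 0.15 with Omipalisib, 0.26 with Apitolisib, 0.15 with PF04691502 and 0.14 with AZD2014, where the medians of all genes were 0.21, 0.12, 0.11, 0.10 and −0.02.

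These directions depend in part on how the samples are scaled. A further scaling by the median of ratios moved the median log2 fold change of all genes down by 0.19 with BGT226, 0.15 with TG100115, 0.11 with Apitolisib and 0.10 with Omipalisib. The split of all genes into higher and lower then went from 3060 and 803 to 2026 and 1914 with BGT226, from 2227 and 1037 to 1738 and 1727 with Omipalisib, and from 1614 and 407 to 830 and 901 with Apitolisib. It went from 1127 and 536 to 729 and 963 with PF04691502, and from 137 and 97 to 101 and 155 with Mubritinib. The fold changes given below are those of the authors' scaling.

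**Figure D1:**
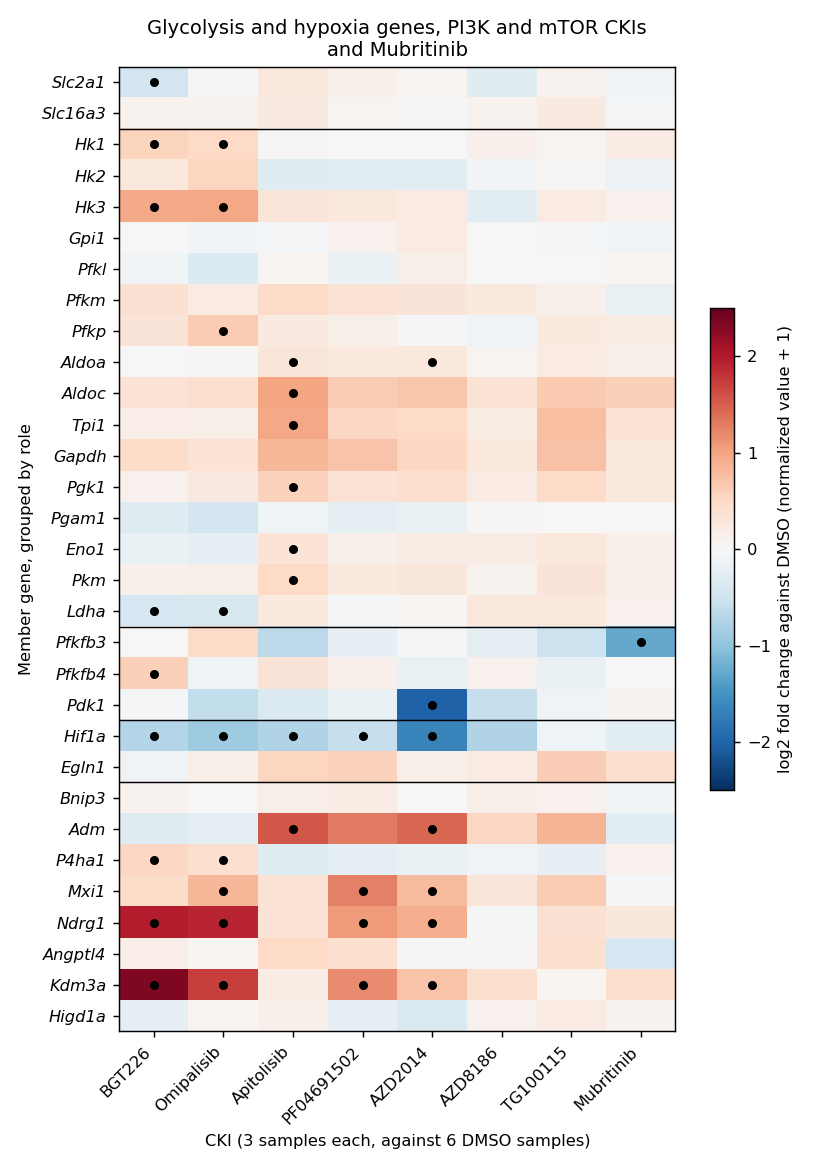
Log2 fold change of normalized value + 1 against the 6 DMSO samples for the 31 tested genes (vertical axis, grouped by role) with 8 CKIs (horizontal axis, 3 samples each), in red where higher and blue where lower, with a black dot where the adjusted p from limma was under 0.05. Ndrg1 and Kdm3a are darkest in red with BGT226, at 1.96 and 2.33, and Pdk1 and Hif1a darkest in blue with AZD2014, at −2.03 and −1.67.

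Slc2a1 encodes GLUT1, the main glucose transporter of activated macrophages, and Slc16a3 encodes MCT4, which exports lactate. With BGT226, Slc2a1 had normalized values of 660, 738 and 783, against a lowest of 920, a median of 983 and a highest of 1135 with DMSO, and a log2 fold change of −0.46 (standard error 0.12, adjusted p = 0.00111). All 3 BGT226 samples lay below all DMSO samples. Slc2a1 was not called with the other 7 CKIs, where its log2 fold change lay between −0.30 with AZD8186 and 0.26 with Apitolisib. Slc16a3, at 539 to 855 with DMSO, was called with 0 of the 58 CKIs by limma, 3 of which had an unadjusted p under 0.05.

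Hexokinases put the first phosphate on glucose. Hk3, a hexokinase of myeloid cells, lies on the minus strand of chromosome 13 from 55005985 to 55021385 in mm10. With BGT226 its normalized values were 4299, 3195 and 3718, against 1665, 1871 and 2376 as the lowest, median and highest with DMSO, a log2 fold change of 0.94 (standard error 0.19, adjusted p = 3.5e-05). Omipalisib gave 3962, 4269 and 3222 and a log2 fold change of 0.97 (standard error 0.19, adjusted p = 3.06e-05). With both CKIs every sample was above every DMSO sample. Hk1, the hexokinase of most tissues, had 880, 1027 and 1292 as the lowest, median and highest with DMSO. It was at 1317, 1494 and 1850 with BGT226 (log2 fold change 0.56, adjusted p = 0.000193) and at 1460, 1524 and 1457 with Omipalisib (0.50, adjusted p = 0.00127). Here too the groups did not overlap, although the lowest BGT226 sample was just above the highest DMSO sample. Hk2, the hexokinase best known as a HIF-1 target, varied widely between DMSO samples, from 294 to 1078, and was called with 0 of the 58 CKIs by limma, none of which had an unadjusted p under 0.05.

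Phosphofructokinase commits sugar phosphates to glycolysis, and its platelet form is encoded by Pfkp. Omipalisib gave Pfkp values of 1228, 1330 and 1232, against 728, 771.5 and 968 as the lowest, median and highest with DMSO (log2 fold change 0.63, adjusted p = 0.00339), with no overlap. With AZD2014 Pfkp was at 949, 687 and 750, a log2 fold change of −0.05 (adjusted p = 0.891). Pfkp overlaps Pitrm1 on the other strand, which had a mean of 347 with DMSO, and whether the counting used the strand is not stated, so part of its reads is uncertain. The liver form Pfkl and the muscle form Pfkm were called with 0 of the 58 CKIs by limma, as was Gpi1, the isomerase before this step, with 0, 2 and 0 CKIs at an unadjusted p under 0.05. Pfkm overlaps Senp1, also on the other strand, whose DMSO mean of 166 exceeds the 75.8 of Pfkm itself.

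The enzymes of the later steps split between CKIs. Ldha, which makes lactate from pyruvate, had 3572, 4112.5 and 5584 as the lowest, median and highest with DMSO. With BGT226 it was at 3014, 3405 and 3374, a log2 fold change of −0.41 (adjusted p = 0.0256). With Omipalisib it was at 3124, 3386 and 3298, also −0.41 (adjusted p = 0.0318). All 6 samples lay below the lowest DMSO sample. The call was lost without the first BGT226 replicate and without any 1 of the Omipalisib replicates, and with both CKIs against the second DMSO set alone, without the third DMSO replicates and in a fit of the CKI and DMSO samples alone. The Omipalisib call was also lost with no filter. Eno1, the enolase, was called lower with Omipalisib when blocked on the replicate number (−0.23, limma adjusted p = 0.0231) and under the median of ratios. With AZD2014, Aldoa, the main aldolase, was at 16982, 18369 and 19109, against 13523, 14918 and 16789 with DMSO (log2 fold change 0.26, adjusted p = 0.0429). The samples did not overlap, but the rise is small and was lost under 11 of 19 alternatives, among them either DMSO set alone, no filter, a fit of the AZD2014 and DMSO samples alone, leaving out any 1 of the AZD2014 replicates or the first or the second DMSO replicates, and leaving out the second replicate of the second DMSO set.

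Apitolisib gave higher values of 6 enzymes between the aldolase step and pyruvate kinase. Tpi1, which interconverts the triose phosphates, was at 5388, 6643 and 6888, against 2313, 3192.5 and 3941 with DMSO as the lowest, median and highest (log2 fold change 0.97, standard error 0.26, adjusted p = 0.0156). Aldoc, a second aldolase, was at 349, 311 and 319, against 121, 145 and 280 (0.99, adjusted p = 0.0452). Pgk1, which makes the first ATP of the pathway, was at 3149, 3506 and 3738, against 1836, 2429.5 and 2561 (0.57, adjusted p = 0.0176). For these 3 genes all Apitolisib samples lay above all DMSO samples. Pkm, the pyruvate kinase, was at 25357, 30723 and 30550, against 17032, 21043 and 23466, again without overlap (0.49, adjusted p = 0.0307). Eno1, the enolase, was at 5458, 7349 and 7154, against 4394, 5155.5 and 5927 (0.35, adjusted p = 0.0478), so that the first Apitolisib sample lay within the DMSO samples. Aldoa was the remaining enzyme, with a log2 fold change of 0.29 (adjusted p = 0.0291) and overlapping samples. Gapdh, at 220, 266 and 384 against 108 to 208, was just outside the threshold (0.83, adjusted p = 0.0755).

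All 7 calls of higher genes with Apitolisib were lost against either DMSO set alone, without the second replicate of the second DMSO set, which was chosen after seeing the data, and without the third Apitolisib replicate. The share of mitochondrial transcripts was between 0.862% and 2.04% with Apitolisib and between 0.301% and 1.05% with DMSO. With this share as a covariate, and blocked on the replicate number, 0 of the 31 genes were called higher by limma, with 5 at an unadjusted p under 0.05, and 1 of all 12714 genes was (0.00787%). The 8 neutrophil markers, 6 of which passed the filter, summed to between 559 and 1005 with Apitolisib and to between 225 and 639 with DMSO. S100a8 was the most abundant of them, and 1 of the 8 had a DMSO median of 0. Camp was called higher with Apitolisib, at 62, 46 and 57 against 7 to 35 with DMSO (log2 fold change 1.57, adjusted p = 0.0227). Their part in the result was not tested. Same-numbered samples of Apitolisib and DMSO varied together. Blocked on the replicate number, 9 genes of the group were higher (background 20.5%) and 3 lower (background 7.93%), with Gapdh and Ldha added to the first and P4ha1 and Pfkfb3 to the second.

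Levels between genes were compared per kb of transcript. On this scale Aldoa had the highest DMSO mean of the group, 8348.5 normalized values per kb, followed by Pkm with 5367 and Pgam1 with 4441. Gapdh, usually among the most abundant transcripts of a cell, had 108 per kb and stood at the 61.9th percentile of the tested genes. Gapdh has many near-identical pseudogenes, and a read was kept at only 1 place, so its level and its changes are uncertain. The lowest tested genes of the group were Angptl4 with 7.62, Egln1 with 8.09, Adm with 8.37 per kb, and Mxi1.

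Regulators of flux follow. Pfkfb3 encodes the enzyme that makes the strongest allosteric activator of phosphofructokinase, and lies on the minus strand of chromosome 2 from 11471430 to 11553929 in mm10. With Mubritinib it was at 1308, 786 and 1454, against 1664, 2998 and 3599 as the lowest, median and highest with DMSO, a log2 fold change of −1.29 (standard error 0.27, adjusted p = 0.00112). All 3 Mubritinib samples lay below all DMSO samples and their mean was 0.410 times that of DMSO. The call was lost without the second Mubritinib replicate, the lowest of the 3, and in a fit of the Mubritinib and DMSO samples alone. With the PI3K and mTOR CKIs Pfkfb3 was not called, and its log2 fold change ran from −0.66 with Apitolisib (adjusted p = 0.0728) to 0.47 with Omipalisib (adjusted p = 0.188). Blocked on the replicate number, Pfkfb3 was called lower with Apitolisib (limma adjusted p = 0.0431). It was not called when the mitochondrial share was added as a covariate to this block.

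Pfkfb4 encodes a related enzyme. With BGT226 it was at 212, 241 and 166, against 123, 133.5 and 157 as the lowest, median and highest with DMSO (log2 fold change 0.59, adjusted p = 0.000917), with no overlap, and it was called with no other CKI of the 58. Pdk1 encodes a kinase that holds pyruvate back from the mitochondria by inhibiting pyruvate dehydrogenase, and is a known HIF-1 target on the plus strand of chromosome 2 from 71873224 to 71903858. AZD2014 gave Pdk1 values of 134, 113 and 174, against 446, 510 and 1056 with DMSO, a log2 fold change of −2.03 (standard error 0.26, adjusted p = 1.59e-10). The AZD2014 samples were far below all DMSO samples, with a mean of 0.237 times theirs. This fall was called under every alternative tried. With Omipalisib Pdk1 was at 340, 439 and 340, also below every DMSO sample, but just outside the threshold (−0.61, adjusted p = 0.0660). Blocked on the replicate number, Pdk1 was called lower with Omipalisib (limma adjusted p = 0.0138), also with the mitochondrial share added. It was called lower as well under the median of ratios and against the second DMSO set alone.

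Hif1a, on the plus strand of chromosome 12 from 73901324 to 73947554, encodes the oxygen-regulated subunit of HIF-1. Its DMSO values had a lowest of 1196, a median of 1484.5 and a highest of 2501. With AZD2014 it was at 480, 422 and 579, a log2 fold change of −1.67 (standard error 0.21, adjusted p = 1.03e-10), and the mean was 0.307 times that of DMSO. Omipalisib gave 858, 869 and 794 (−0.89, adjusted p = 0.000480) and Apitolisib 940, 926 and 908 (−0.75, adjusted p = 0.0169). With these 3 CKIs every sample was below every DMSO sample. BGT226 gave 787, 1201 and 878 (−0.73, adjusted p = 0.00369), the second of which lay just within the DMSO samples, and its call was lost against the first DMSO set alone and without the first BGT226 replicate. PF04691502 gave 896, 1064 and 1187, all below the DMSO samples, and was just inside the threshold (−0.58, adjusted p = 0.0486), a call lost under 12 of 19 alternatives. The mitochondrial share was between 0.934% and 2.17% with PF04691502, against 0.301% to 1.05% with DMSO, and the Hif1a calls with PF04691502 and Apitolisib were lost with this share as a covariate together with the block. AZD8186 gave 768, 933 and 1115, also below every DMSO sample, and a log2 fold change of −0.75 that did not pass (adjusted p = 0.0947). With TG100115 and Mubritinib the log2 fold changes were −0.10 and −0.27 (adjusted p = 0.786 and 0.576). The highest DMSO value, 2501, belongs to the second replicate of the second set, and without this sample Hif1a was called lower with BGT226, Omipalisib and AZD2014 and no longer with Apitolisib or PF04691502.

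Egln1 and Egln3 encode prolyl hydroxylases that mark HIF-1α for degradation in the presence of oxygen. Egln1 was low, at 15 to 39 with DMSO, and was called with 0 of the 8 CKIs by limma, 3 of which had an unadjusted p under 0.05. Its log2 fold change reached 0.61 with TG100115 (adjusted p = 0.129). Egln3 was between 1 and 12 normalized values in the samples of the 8 CKIs and was not tested.

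The hypoxia targets held the largest rises. Kdm3a encodes a histone demethylase that needs oxygen, and lies on the minus strand of chromosome 6 from 71588970 to 71632917. With DMSO it had 65, 137 and 152 as its lowest, median and highest value. BGT226 gave 525, 606 and 686, a log2 fold change of 2.33 (standard error 0.20, adjusted p = 4.03e-19) and a mean 4.90 times that of DMSO. Omipalisib gave 443, 380 and 376 (1.74, adjusted p = 3.77e-12). The order then went on with PF04691502, which gave 257, 262 and 296 (1.18, adjusted p = 6.88e-06), and AZD2014, which gave 194, 206 and 188 (0.71, adjusted p = 0.00556). With all 4 CKIs each sample was above each DMSO sample. With Apitolisib, in contrast, Kdm3a was at 126, 152 and 132, within the DMSO samples (0.19, adjusted p = 0.525). The difference between Apitolisib and the other CKIs was not tested. The call with AZD2014 was lost against the second DMSO set alone and in a fit of the AZD2014 and DMSO samples alone.

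Ndrg1, a stress-induced gene of differentiation, lies on the minus strand of chromosome 15 from 66929318 to 66969641 and had 976, 1372.5 and 2025 as the lowest, median and highest with DMSO. It was at 6100, 4503 and 5340 with BGT226 (log2 fold change 1.96, standard error 0.29, adjusted p = 9.33e-09). Omipalisib gave 5405, 5104 and 4664 (1.90, adjusted p = 4.96e-08). Values were lower, but still above all DMSO samples, with PF04691502, at 3398, 2930 and 2237 (1.06, adjusted p = 0.00754), and with AZD2014, at 3054, 2185 and 2425 (0.90, adjusted p = 0.0153). With Apitolisib 1 of 3 samples was above the DMSO samples, and Ndrg1 was not called (0.34, adjusted p = 0.416). The calls with PF04691502 and AZD2014 were lost against the first DMSO set alone, without the first replicate of the CKI and without the third DMSO replicates.

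Mxi1 encodes a repressor that competes with MYC for its partner MAX. Its values were low, with 26, 35 and 44 as the lowest, median and highest with DMSO. It was at 88, 79 and 79 with PF04691502 (log2 fold change 1.26, standard error 0.21, adjusted p = 6.13e-06), at 58, 68 and 57 with Omipalisib (0.83, adjusted p = 0.00169) and at 58, 49 and 72 with AZD2014 (0.79, adjusted p = 0.00358). All 9 of these samples exceeded the DMSO samples. BGT226 gave 46, 51 and 44, of which the last equals the highest DMSO value, and stayed outside the threshold (0.47, adjusted p = 0.0882). PF04691502 thus had the largest log2 fold change of Mxi1 and BGT226 that of Kdm3a and Ndrg1. The AZD2014 call of Mxi1 was lost without the third AZD2014 replicate and in a fit of the AZD2014 and DMSO samples alone.

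P4ha1 encodes the catalytic subunit of the enzyme that hydroxylates proline in collagen. With BGT226 it was at 863, 846 and 1099, against 570, 642 and 744 as the lowest, median and highest with DMSO (log2 fold change 0.51, adjusted p = 0.000298), with no overlap. Omipalisib gave a log2 fold change of 0.39 (adjusted p = 0.00782) and also no overlap, a call lost under the median of ratios, without the third Omipalisib replicate and in a fit of these samples with DMSO alone. Adm, which encodes the vasodilating peptide adrenomedullin, was at 6 to 18 with DMSO, with a median of 11. It was at 30, 25 and 54 with Apitolisib (1.56, standard error 0.49, adjusted p = 0.0266) and at 35, 22 and 41 with AZD2014 (1.44, adjusted p = 0.0249), all above the DMSO samples, but both calls were lost against either DMSO set alone and without the second replicate of the second set. PF04691502 gave 45, 17 and 30, where the second sample lay within the DMSO samples, and was just outside the threshold (1.29, adjusted p = 0.0622). Bnip3 and Higd1a, which act at the mitochondria, and Angptl4, a secreted inhibitor of lipoprotein lipase, were called with 0 of the 8 CKIs by limma, with 0, 1 and 0 of the 8 at an unadjusted p under 0.05. Vegfa, the best-known HIF-1 target, stayed between 0 and 12 in all 180 samples and was not tested.

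**Figure D2:**
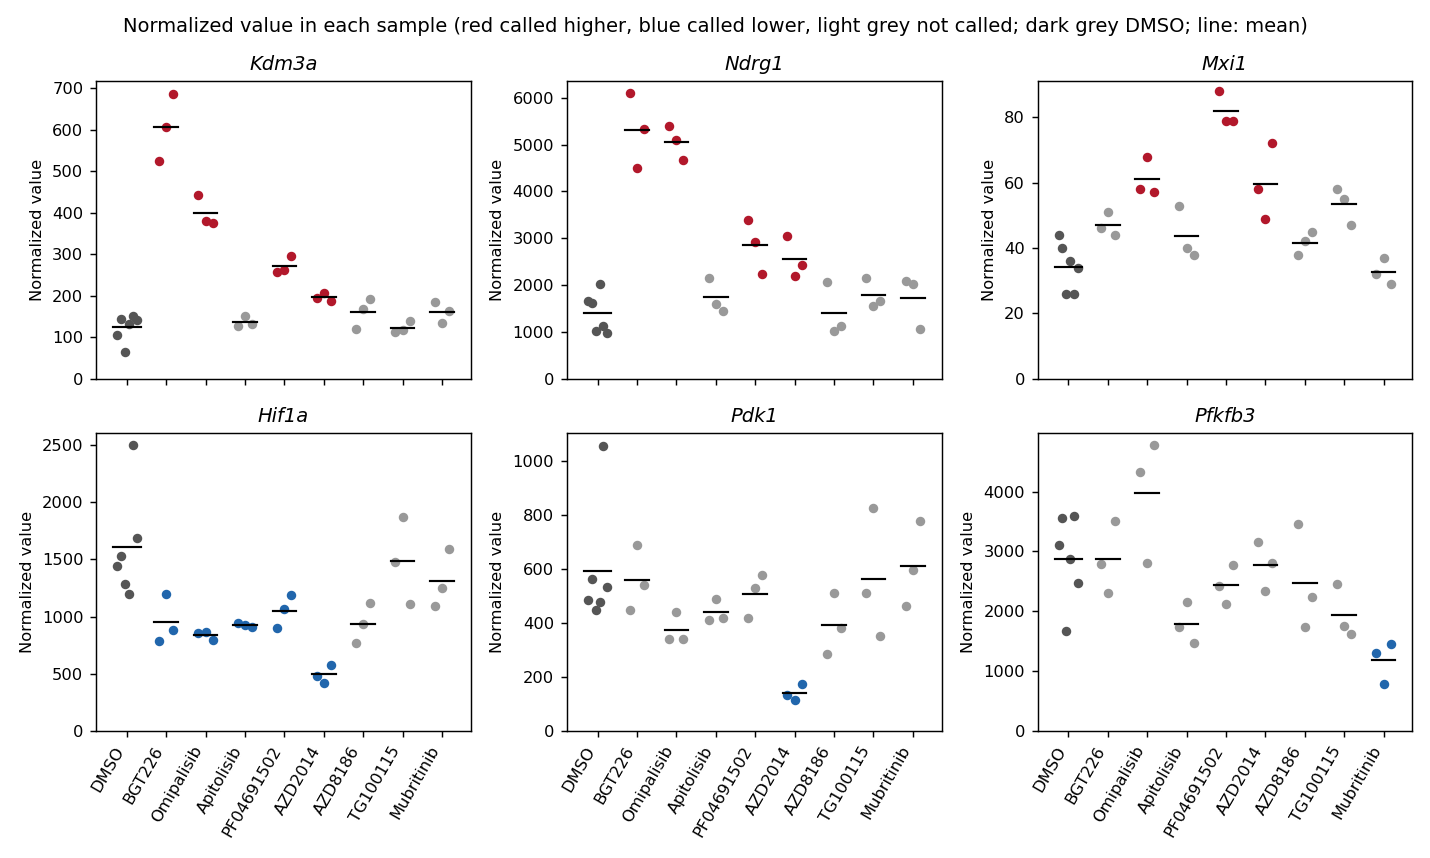
Normalized value (vertical axis, starting at 0) of 6 genes in each of the 6 DMSO samples and in the 3 samples of each of 8 CKIs (horizontal axis), with a line at each mean and with the CKI samples in red where called higher, blue where called lower and light grey where not called. Kdm3a runs from 65 to 152 with DMSO and from 525 to 686 with BGT226, Pdk1 from 113 to 174 with AZD2014 against 446 to 1056 with DMSO, and Pfkfb3 from 786 to 1454 with Mubritinib against 1664 to 3599 with DMSO.

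Mubritinib was compared directly with BGT226 and with Omipalisib, and not with the other PI3K and mTOR CKIs. Mubritinib against BGT226 gave 2 genes of the group higher (6.45%, against 3.08% of all genes) and 6 lower (19.4%, against 13.7%). Kdm3a, at 185, 135 and 163 with Mubritinib, was lower by a log2 difference of −1.91 (standard error 0.23, adjusted p = 3.62e-11). Ndrg1, at 2083, 2019 and 1061 with Mubritinib, was lower by −1.68 (adjusted p = 4.06e-05), and Pfkfb3 by −1.30 (adjusted p = 0.000777). Each of these 3 genes had all Mubritinib samples below all BGT226 samples. Hk3 (−0.83), Pfkfb4 (−0.58) and P4ha1 (−0.40) were the other lower genes, and Ldha (0.52, adjusted p = 0.0225) and Slc2a1 (0.37, adjusted p = 0.0452) the higher ones. These 2 rises were both lost without the first BGT226 replicate or without the second Mubritinib replicate. The fall of P4ha1 was lost under 5 of 15 alternatives (the median of ratios, an adjusted p under 0.01, and without the third BGT226 or the first or the second Mubritinib replicate), that of Pfkfb4 without the second BGT226 or the first or the third Mubritinib replicate, and that of Hk3 without the third Mubritinib replicate.

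Against Omipalisib, Mubritinib had 1 gene of the group higher, where 3.94% of all genes were, and 5 lower (16.1%, against 7.9%). Pfkfb3 differed most, with 4325, 2812 and 4778 with Omipalisib and a log2 difference of −1.76 (standard error 0.31, adjusted p = 6.24e-06). Ndrg1 was lower by −1.62 (adjusted p = 0.000144) and Kdm3a by −1.31 (adjusted p = 8e-06), and Mxi1 (−0.88) and Hk3 (−0.86) were also lower. For Pfkfb3, Ndrg1, Kdm3a, Mxi1 and Hk3 all Mubritinib samples were below all Omipalisib samples. Ldha was the higher gene (0.52, adjusted p = 0.0323), a call lost without any 1 of the Omipalisib replicates and without the second or the third Mubritinib replicate. Same-numbered samples of these CKIs varied together. Blocked on the replicate number, 6 genes were higher, Ldha, Eno1, Pgam1, Pfkl, Pdk1 and Hif1a, against a background of 8.94%, and 7 were lower, with Hk1 (adjusted p = 0.00458) and Hk2 (adjusted p = 0.0424) added to the 5 named, against a background of 11.1%. Without the third Mubritinib replicate the number of lower genes was 3, namely Pfkfb3, Ndrg1 and Kdm3a.

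The PI3K CKIs that spare mTOR, AZD8186 and TG100115, changed none of the 31 genes past the threshold in limma. With AZD8186 the log2 fold changes ran from −0.75 for Hif1a to 0.52 for Adm, and with TG100115 from −0.54 for Pfkfb3 to 0.86 for Adm. Just outside the threshold with TG100115 were Tpi1, at 5478, 4064 and 7123 (0.76, adjusted p = 0.0864), Pgk1, at 3054, 2888 and 3845 (0.47, adjusted p = 0.0836), and Mxi1, at 58, 55 and 47 (0.64, adjusted p = 0.0836). All of these samples lay above the DMSO samples. With both CKIs same-numbered samples varied together with DMSO. With the replicate number as a block Hif1a was called lower with AZD8186 (adjusted p = 0.0207), where 1.2% of all genes were lower. With the same block 6 genes were higher with TG100115 (Aldoa, Eno1, Ldha, Mxi1, Pgk1 and Tpi1), against a background of 10.8%. The mitochondrial share was high with TG100115, between 0.889% and 1.98%. With this share as a covariate and the same block, limma called 0 of the 31 genes higher and 0.00787% of all genes, with 4 of the 31 at an unadjusted p under 0.05. The sum of the neutrophil markers was between 526 and 1030 with TG100115, and their part in these values was not tested.

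Over all 58 CKIs, 1798 combinations of a tested gene and a CKI were compared. Of these 57 (3.17%, against 2.52% of all gene and CKI combinations) were higher and 31 (1.72%, against 1.65%) lower, which is near the background. At least 1 gene of the group was called with 20 CKIs and 0 with 38, of which 17 had no called gene of any kind. Hif1a was the gene most often called. It was lower with 14 CKIs, 5 of them described above, and higher with 0, and its log2 fold change was below 0 with 51 of the 58. All of these comparisons share the DMSO samples, including the high value of 2501. Pfkfb3 and Pdk1 were each lower with 5 CKIs and higher with 0. Their log2 fold changes were below 0 with 46 and 45 of the 58, with medians of −0.38 and −0.14. That of Aldoa was below 0 with 1 CKI, and the medians were 0.36 for Tpi1 and 0.60 for Adm. These shifts over many CKIs are measured against the same DMSO samples. Adm and Pgk1 were each higher with 6 CKIs, and Tpi1, Mxi1, Ndrg1 and Kdm3a each with 5. Slc2a1 and P4ha1 were called in both directions, and 8 genes, Hk2, Gpi1, Pfkl, Pfkm, Pgam1, Slc16a3, Bnip3 and Higd1a, with 0 of the CKIs in the main limma fit, where between 0 and 4 CKIs for each of these genes had an unadjusted p under 0.05. Some of these genes were called against DMSO when blocked on the replicate number. Pgam1 was then lower with BGT226, Omipalisib and PF04691502, and with Omipalisib Pfkl was lower and Hk2 higher. With AZD2014 Gpi1 was higher and Higd1a lower under this block.

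Outside the 8 CKIs, Lapatinib, an EGFR and ERBB2 inhibitor, had the most genes higher, 7 (22.6%, against 18.1% of all genes), followed with 4 each (12.9%) by Midostaurin (against 2.63%), Tofacitinib (against 9.02%), Lenvatinib (against 11.4%) and Pimasertib (against 16%). For Lapatinib, Lenvatinib and Pimasertib these shares lie near those of all genes. The mitochondrial share was between 1.04% and 1.70% with Lapatinib and between 1.72% and 2.25% with Pimasertib, between 1.14% and 2.00% with Lenvatinib and between 0.744% and 1.93% with Tofacitinib, against 0.301% to 1.05% with DMSO. Lapatinib raised Tpi1, Pgk1 and Pkm, with log2 fold changes of 0.85, 0.50 and 0.44, as well as Gapdh (0.94, adjusted p = 0.0362) and Egln1 (0.85, adjusted p = 0.0148). Gapdh and Egln1 were each called with 1 of the 58 CKIs, while 15 CKIs each had an unadjusted p under 0.05, and Egln1 had a larger log2 fold change with Pacritinib, 0.98, that did not pass (adjusted p = 0.0817). Midostaurin gave the largest rise of Slc2a1, to 1773, 1469 and 1895 (0.77, adjusted p = 6.69e-07), and of Adm, to 62, 33 and 72 (2.16, adjusted p = 0.00158). Every Midostaurin sample was above every DMSO sample for these 2 genes. Pimasertib, a MEK inhibitor, gave the largest fall of Slc2a1, to 551, 585 and 641 (−0.76, adjusted p = 1.31e-06), also without overlap. Most genes lower were found with the JAK inhibitor Filgotinib, 4 (12.9%, against 14.6% of all genes), and with the ERBB inhibitor Afatinib, 3 (9.68%, against 12.8%), shares below those of all genes. Afatinib lowered Pdk1 to 178, 203 and 269 (−1.40, adjusted p = 1.65e-05), Hif1a to 611, 433 and 951 (−1.30, adjusted p = 9.71e-07) and Pfkfb3 to 1447, 561 and 1996 (−1.25, adjusted p = 0.000247). For Pdk1 and Hif1a the samples were all below those with DMSO, while for Pfkfb3 the third lay within them. The next number, 2 lower genes (6.45%), was shared by PH797804 (against 1.25%), BMS911543 (against 8.08%), Pimasertib (against 5.68%) and Lapatinib (against 5.26%). The largest fall of Pfkfb3 over the 58 CKIs was found with the IKK inhibitor IMD0354, at 1400, 782 and 988 (−1.44, adjusted p = 0.000380), all below the DMSO samples.

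**Figure D3:**
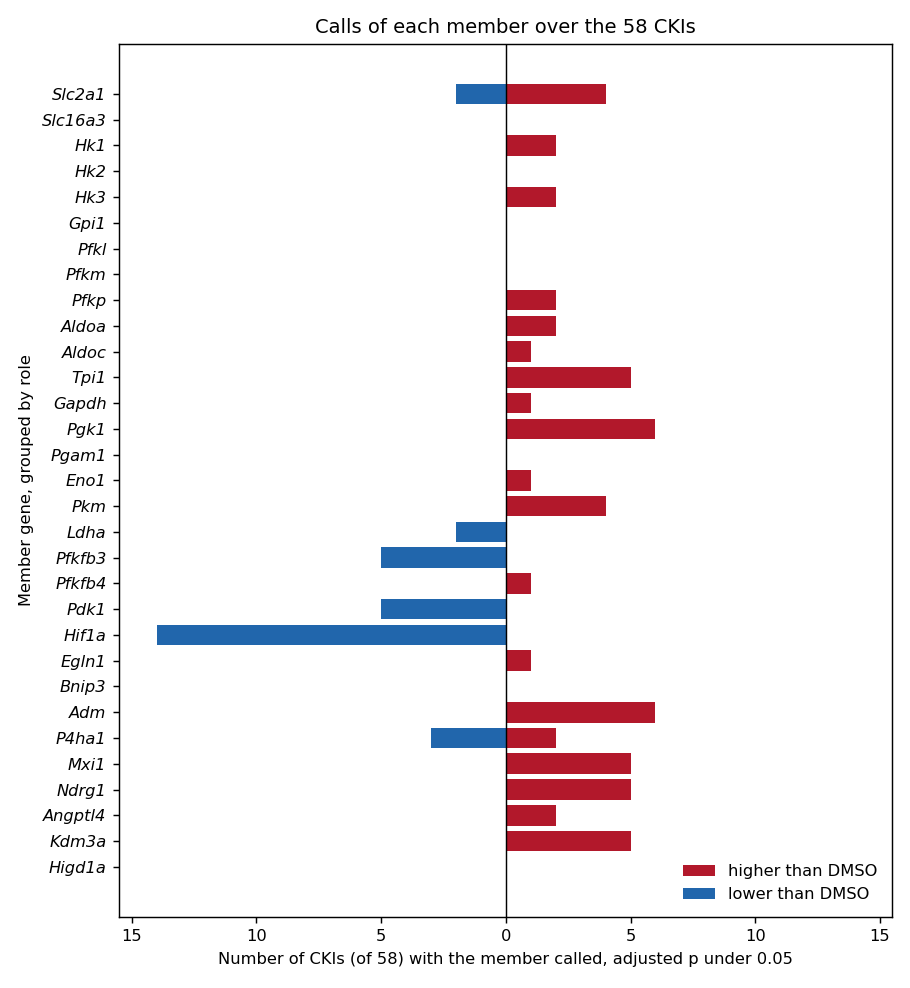
Number of the 58 CKIs (horizontal axis, drawn to the right in red for higher and to the left in blue for lower) with which each of the 31 tested genes (vertical axis, grouped by role) had an adjusted p under 0.05 in limma. Hif1a is called lower with 14 CKIs and Pfkfb3 and Pdk1 with 5 each, while Adm and Pgk1 are called higher with 6 each.

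Other genes of the same pathways moved as follows. Of 27 tested further genes of glycolysis and pyruvate use, 5 were higher (18.5%, against 24.1% of all genes) and 3 lower (11.1%, against 6.32%) with BGT226, 3 higher (11.1%, against 17.5%) and 3 lower (11.1%, against 8.16%) with Omipalisib, 2 higher (7.41%, against 12.7%) and 2 lower (7.41%, against 3.2%) with Apitolisib, 0 higher (against 8.86%) and 1 lower (3.7%, against 4.22%) with PF04691502, 1 higher (3.7%, against 6.06%) and 6 lower (22.2%, against 13.5%) with AZD2014, 0 higher (against 1.08%) and 1 lower (3.7%, against 0.763%) with Mubritinib, and 0 in limma with AZD8186 and TG100115, each of which had 2 of these genes at an unadjusted p under 0.05. Pfkfb2, another maker of the phosphofructokinase activator, was at 116, 136 and 99 with BGT226, against 33 to 71 with DMSO (log2 fold change 1.30, adjusted p = 1.02e-07). Slc2a6, a lysosomal glucose transporter of macrophages, was at 8035, 5975 and 8699, against 3525 to 5447 (0.80, adjusted p = 5.15e-06). Both genes were also higher with Omipalisib, at 0.95 and 0.65. Gpd2, which passes electrons from glycolysis to the respiratory chain, was the gene of this list that Mubritinib lowered, to 303, 307 and 454, against 437 to 703 (−0.64, adjusted p = 0.0397), the third sample lying within the DMSO samples. BGT226 lowered Gpd2 as well, to 284, 302 and 496 (−0.64, adjusted p = 0.00396).

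Of 38 tested further genes of the HIF pathway, 12 were higher (31.6%, against 24.1% of all genes) and 3 lower (7.89%, against 6.32%) with BGT226, 11 higher (28.9%, against 17.5%) and 4 lower (10.5%, against 8.16%) with Omipalisib, 6 higher (15.8%, against 12.7%) and 2 lower (5.26%, against 3.2%) with Apitolisib, 7 higher (18.4%, against 8.86%) and 2 lower (5.26%, against 4.22%) with PF04691502, 5 higher (13.2%, against 6.06%) and 8 lower (21.1%, against 13.5%) with AZD2014, 0 higher (against 0%) and 1 lower (2.63%, against 0.228%) with AZD8186, 2 higher (5.26%, against 1.08%) and 0 lower (against 0.763%) with Mubritinib, and 0 in limma with TG100115, which had 8 at an unadjusted p under 0.05. Hilpda, a lipid droplet protein and HIF target, was at 1086, 786 and 364 with BGT226, against 27 to 119 with DMSO (log2 fold change 3.74, adjusted p = 2.93e-10). Cxcr4, a chemokine receptor, was at 489, 384 and 221, against 2 to 55 (4.84, adjusted p = 1.02e-13). Cxcr4 was also called higher with Omipalisib, Apitolisib, PF04691502, AZD2014 and Mubritinib, the last at 116, 129 and 38 (2.80, adjusted p = 0.000219), of which the third lay within the DMSO samples. With Apitolisib it was at 85, 29 and 50, the second and the third within the DMSO samples.

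Of 8 tested genes that report on mTORC1 and PI3K activity, 6 were higher (75%, against 24.1% of all genes) and 0 lower (against 6.32%) with BGT226, 6 higher (75%, against 17.5%) and 2 lower (25%, against 8.16%) with Omipalisib, 3 higher (37.5%, against 12.7%) and 0 lower (against 3.2%) with Apitolisib, 5 higher (62.5%, against 8.86%) and 0 lower (against 4.22%) with PF04691502, 4 higher (50%, against 6.06%) and 0 lower (against 13.5%) with AZD2014, 2 higher (25%, against 1.08%) and 1 lower (12.5%, against 0.763%) with Mubritinib, and 0 in limma with AZD8186 and TG100115, which had 0 and 3 at an unadjusted p under 0.05. This list, like the further lists above, was chosen with earlier results of these data known. Its shares beside those of all genes are therefore no separate result. The genes lower with Omipalisib were Sesn1 (log2 fold change −1.73, adjusted p = 1.37e-06) and Trib1 (−0.68, adjusted p = 0.0407). Mubritinib raised Foxo3, at 82, 126 and 47 against 17 to 68 with DMSO (log2 fold change 1.44, adjusted p = 0.0125), and Irs2, at 92, 159 and 58 against 19 to 52 (1.39, adjusted p = 0.0326). Both were also higher with BGT226, Omipalisib and PF04691502. The gene that Mubritinib lowered was Txnip, which encodes an inhibitor of glucose uptake whose transcript is known to follow the supply of glucose metabolites. It was at 82, 152 and 75, against 352, 545.5 and 749 as the lowest, median and highest with DMSO, a log2 fold change of −2.42 (standard error 0.22, adjusted p = 2.87e-16). With BGT226, by contrast, Txnip was at 2186, 1704 and 1504 (1.75, adjusted p = 3.75e-11), and it was also higher with Omipalisib (1.38), Apitolisib (0.86), PF04691502 (1.75) and AZD2014 (1.38). Mubritinib samples lay below, and BGT226 samples above, all DMSO samples. Txnip overlaps Gm15441 on the other strand, which had a mean of 58.8 with DMSO, so part of its reads is uncertain.

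The identity of the cells was checked with marker lists. All 8 macrophage markers passed the filter and summed to between 99709 and 216444 with DMSO, with Lyz2 the most abundant, and all 6 LPS response genes were present. Some of these genes were themselves called. Il1b was lower with BGT226, at 1994, 1128 and 1052 against 2842 to 6751 with DMSO, and higher with Apitolisib, at 11374, 6806 and 9636. Ccl4 and Mertk were higher with BGT226 (0.54 and 1.22) and with Omipalisib (1.04 and 1.24), Nfkbia (0.23) and Cd14 (0.65) with Omipalisib, Cd68 with Apitolisib (1.48), and Csf1r with BGT226 (0.16) and AZD2014 (0.21), all as log2 fold changes. Of 8 lymphocyte markers 0 passed, and 7 had a DMSO median of 0. For fibroblasts 2 of 6 markers passed and for dendritic cells 1 of 5, with sums of 19 to 147 and 61 to 93 with DMSO. The dendritic cell markers summed to between 115 and 162 with Omipalisib, above all DMSO samples, and to between 37 and 63 with AZD2014. Xcr1, the marker of these that passed, was called higher with Omipalisib (log2 fold change 1.11, adjusted p = 0.000510) and lower with AZD2014 (−0.69, adjusted p = 0.0479). Mpo and Elane, markers of neutrophil precursors, were called lower with BGT226 and Omipalisib, for example Elane at 0, 1 and 1 with Omipalisib against 9 to 32, and Elane also with PF04691502, at 2, 10 and 9 (log2 fold change −1.57, adjusted p = 0.00282). The neutrophil markers summed to between 170 and 282 with Omipalisib and between 180 and 469 with BGT226, against 225 to 639 with DMSO. The Mubritinib samples had sums of 241, 771 and 844, so that 2 of 3 exceeded all DMSO samples. The part of the neutrophil and dendritic cell markers in the results was not tested.

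Promoter windows of 300 bases, from 250 before to 50 after the start of the gene, were available for 32 of the 34 genes, all but Ndrg1 and Angptl4, from RefSeq (build GRCm38.p6). They were searched on both strands for ACGTG and GCGTG, the core of the hypoxia response element, and for CACGTG, an E-box that contains ACGTG. Either core was found in 25 of the 32 windows (78.1%) and in 43.8% of all 32851 windows. ACGTG alone was found in 18 (56.2%, against 19.6%) and CACGTG in 4 (12.5%, against 7.15%). The window of Mxi1 held no match, nor did those of Hk1, Gpi1, Aldoa, Tpi1, Pkm and Vegfa. A match describes the letters and is not by itself a binding site. The 6 windows shown are those with a match whose genes were called with the most of the 8 CKIs, written 5′ to 3′ on the strand of the gene, with matches on either strand in capitals, where a match on the other strand appears as its reverse complement. They are Hif1a at chr12:73907617-73907916 (plus strand), Kdm3a at chr6:71632868-71633167 (minus strand), Adm at chr7:110627407-110627706 (plus strand), Hk3 at chr13:55021336-55021635 (minus strand), P4ha1 at chr10:59323046-59323345 (plus strand) and Ldha at chr7:46845554-46845853 (plus strand). That of Hif1a lies inside the deposited gene model, which begins further upstream. Ldha has the most matches of the 6, 7 when overlapping ones and both strands are counted, and Hif1a has 3.
Hif1a: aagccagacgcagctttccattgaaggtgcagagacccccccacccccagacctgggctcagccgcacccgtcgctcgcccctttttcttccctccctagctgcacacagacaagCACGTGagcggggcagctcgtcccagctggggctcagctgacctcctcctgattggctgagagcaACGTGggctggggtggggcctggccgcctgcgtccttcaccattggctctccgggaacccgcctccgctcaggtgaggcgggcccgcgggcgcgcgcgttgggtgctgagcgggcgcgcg
Kdm3a: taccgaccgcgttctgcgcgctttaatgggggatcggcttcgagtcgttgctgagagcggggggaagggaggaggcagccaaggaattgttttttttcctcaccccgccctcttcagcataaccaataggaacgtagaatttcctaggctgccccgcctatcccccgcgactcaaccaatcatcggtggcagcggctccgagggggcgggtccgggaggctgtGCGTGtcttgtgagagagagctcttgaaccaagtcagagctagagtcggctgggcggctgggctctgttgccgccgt
Adm: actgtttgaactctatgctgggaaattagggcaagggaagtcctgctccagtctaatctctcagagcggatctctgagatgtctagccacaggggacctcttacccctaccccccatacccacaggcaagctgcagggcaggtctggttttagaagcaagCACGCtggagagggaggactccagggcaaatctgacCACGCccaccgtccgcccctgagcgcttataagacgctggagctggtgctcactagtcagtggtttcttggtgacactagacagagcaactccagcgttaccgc
Hk3: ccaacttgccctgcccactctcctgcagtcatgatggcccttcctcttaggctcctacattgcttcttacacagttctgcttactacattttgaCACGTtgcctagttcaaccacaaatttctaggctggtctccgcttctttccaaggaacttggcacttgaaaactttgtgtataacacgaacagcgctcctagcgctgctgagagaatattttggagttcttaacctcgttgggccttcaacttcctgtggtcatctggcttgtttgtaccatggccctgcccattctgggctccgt
P4ha1: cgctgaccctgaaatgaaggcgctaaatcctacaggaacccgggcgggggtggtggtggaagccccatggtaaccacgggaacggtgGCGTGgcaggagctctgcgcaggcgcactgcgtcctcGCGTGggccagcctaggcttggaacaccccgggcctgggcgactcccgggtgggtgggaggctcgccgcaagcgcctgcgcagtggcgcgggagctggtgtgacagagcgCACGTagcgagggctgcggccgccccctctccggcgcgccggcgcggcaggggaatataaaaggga
Ldha: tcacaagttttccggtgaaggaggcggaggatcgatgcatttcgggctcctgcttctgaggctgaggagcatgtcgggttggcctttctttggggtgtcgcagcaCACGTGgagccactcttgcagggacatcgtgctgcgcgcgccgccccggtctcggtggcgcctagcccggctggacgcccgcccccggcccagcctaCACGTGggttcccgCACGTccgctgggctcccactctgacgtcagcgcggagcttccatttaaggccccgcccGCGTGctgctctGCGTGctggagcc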

How the data were processed

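RNA of 180 samples was measured, and all table columns were assigned to samples. The authors aligned single-end reads to mm10 with TopHat2 2.1.1, kept 1 alignment for each read, removed blacklisted regions with bedtools 2.29.2, summed reads on exons of curated RefSeq genes, scaled each sample on invariant genes and tested the values with DESeq2 in R 3.6.2. The deposited whole numbers are handled as a score without a fixed unit, since scaled values no longer hold whole reads and allow no count test. They were tested with limma 3.58.1 (R 4.3.3) on log2(normalized value + 1), using a variance trend, all 59 groups in 1 fit, a filter at a mean of 10 (12714 of 45070 genes), Benjamini-Hochberg adjustment over these genes and a threshold of 0.05. The steps were tested on simulated data for BGT226 against DMSO, drawn independently and without a replicate effect. Of simulated log2 changes of 1, 70% were recovered, and of changes of 2, 98%, with 9 false calls. A gene that was not called can thus still have changed. Tables and plots were made with Python 3.11.15, pandas 2.3.3, NumPy 2.4.6 and matplotlib 3.10.9. Depth was read as total normalized values per sample (median 10521148.5), and values of low genes near 10 have a large counting error.

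Replicate numbers came from the labels, while the study calls its replicates biological and independent. Deviations from the group means correlated at over 0.1 between same-numbered samples for all 3 numbers in 3 of the 8 main comparisons (Apitolisib, AZD8186 and TG100115) and in that of Mubritinib with Omipalisib. For these the blocked result is given beside the main one where it moved the count, for example from 0 to 6 with TG100115. The rule takes all genes together, while some genes of the group followed the replicate number in both DMSO sets. Pgam1 was at 6749, 8031 and 10007 in the first set and at 5532, 8638 and 9859 in the second. The standard error of Pgam1 with BGT226 was 0.196 in the main fit and 0.0860 with the block. The main fit leaves such a replicate effect out. The labels do not assign the DMSO sets to CKIs, so both were used together. The members and the lists were chosen with earlier results of these data known. For each main CKI up to 6 called members in each direction, by size of log2 fold change, are given with every sample, and up to 4 called genes in each direction could be named from each further list, of which some are reported. The further lists held 34 genes of glycolysis and pyruvate use, 46 of the HIF pathway, 10 readouts of mTORC1 and PI3K, LPS response genes, and markers of macrophages, neutrophils, lymphocytes, fibroblasts and dendritic cells. Outside the main CKIs, the 3 with the most called members in each direction, with ties, are named, and IMD0354 was named after its values were seen. Alternatives tried were other pseudocounts (0.5 and 10), filters (none and 50), scaling by the median of ratios, either DMSO set, no variance trend, a fit of the compared groups alone, a replicate block, the mitochondrial share as a covariate with that block, an adjusted p under 0.01, ACGTG alone as the motif, and leaving out replicates. Leaving out the second replicate of the second DMSO set was added after seeing the data.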

Additional observations from a re-analysis of the deposited data

Results flagged for a closer look

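In 3 of the 34 genes looked at, 1 of the 6 DMSO samples lay far from the other 5, by a gap beyond Dixon's 95% critical value, and each time it was the second replicate of the second DMSO set. Chance alone marks about 1 in 20 such groups. Pdk1 was at 1056 normalized values in this sample, above the next value of 561, a gap of 0.811 of the range. Hif1a was at 2501, above the next value of 1684, a gap of 0.626 of the range. Pgk1 was at 1836, below the next value of 2316, a gap of 0.662 of the range. In these 3 genes the sample lies on the side that makes a fall of Hif1a or Pdk1, or a rise of Pgk1, larger in the comparisons with DMSO. The sample also had the lowest mitochondrial share of the 6, 0.301%, and the part of that share in these values was not tested. Between the DMSO sets as wholes, limma called 0 genes, with 310 of 12714 genes and 2 of the 31 tested genes of the group at an unadjusted p under 0.05.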

How the results depend on the processing

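Of 52 called combinations of a gene and a comparison, 24 were called under every alternative and 28 were lost under at least 1, while 0 reversed. Counts that moved by over 1.5 times are given as higher or lower genes of the 31. Under the median of ratios they were BGT226 6 lower (from 3), Omipalisib 5 lower (from 2), Apitolisib 3 higher (from 7) and 2 lower (from 1), Mubritinib against BGT226 4 higher (from 2) and against Omipalisib 2 higher (from 1). At an adjusted p under 0.01 they were Omipalisib 1 lower, Apitolisib 0 higher and 0 lower, PF04691502 0 lower, AZD2014 2 higher, and Mubritinib 0 higher against BGT226 and against Omipalisib. With no filter they were Omipalisib 1 lower, Apitolisib 2 higher, PF04691502 0 lower, AZD2014 3 higher, and Mubritinib 1 higher against BGT226 and 0 against Omipalisib, and with a filter at 50 AZD2014 had 3 higher. Against the first DMSO set Apitolisib had 0 higher and 0 lower, PF04691502 0 lower and AZD2014 2 higher, and against the second Apitolisib 0 higher and AZD2014 2 higher. Without the variance trend PF04691502 had 0 lower. With only the compared groups fitted, Omipalisib had 1 lower, PF04691502 0 lower, AZD2014 2 higher and Mubritinib 0 lower. With the replicate number as a block Omipalisib had 6 lower, Apitolisib 3 lower, PF04691502 5 higher and 2 lower, AZD8186 1 lower, TG100115 6 higher, Mubritinib 4 higher against BGT226 and 6 higher against Omipalisib, and over all 58 CKIs 112 combinations were higher (from 57) and 54 lower (from 31). The block also raised the share of all genes called higher, for example from 12.7% to 20.5% with Apitolisib and from 0.0236% to 10.8% with TG100115. The blocked share of all gene and CKI combinations is not given here, so these counts as such are no result about the group. With the mitochondrial share and the block Omipalisib had 6 lower, Apitolisib 0 higher and 0 lower, PF04691502 0 lower, AZD2014 8 higher, AZD8186 1 lower, and Mubritinib 4 higher against BGT226 and 6 higher against Omipalisib. Without the second replicate of the second DMSO set, chosen after seeing the data, Apitolisib had 0 higher and 0 lower, PF04691502 0 lower and AZD2014 3 higher. Leaving out 1 replicate at a time, where DMSO replicates of a number left both sets together, gave 1 to 3 lower for BGT226 (1 without its first), 1 to 4 lower for Omipalisib (1 without any of its own or the third DMSO replicates, 4 without the first DMSO replicates), 0 to 5 higher and 0 to 2 lower for Apitolisib (1 higher without its second, 0 of either without the third Apitolisib or the second DMSO replicates, 2 lower without the first or the third DMSO replicates), and 0 to 1 lower for PF04691502 (0 without any of its own or the second or the third DMSO replicates). It gave 2 to 5 higher for AZD2014 (2 without the first or the third AZD2014 replicate, 3 without the second DMSO replicates), 0 to 1 lower for AZD8186 and 0 to 3 higher for TG100115 (1 and 3 without the first DMSO replicates), 0 to 1 lower for Mubritinib (0 without its second), 0 to 2 higher against BGT226 (0 without the first BGT226 or the second Mubritinib replicate, 1 without the second BGT226 or the first or the third Mubritinib replicate), and 0 to 1 higher (0 without any Omipalisib replicate or the second or the third Mubritinib replicate) and 3 to 5 lower (3 without the third Mubritinib replicate) against Omipalisib. ACGTG alone was found in 18 promoter windows, against 25 with GCGTG added. A stricter threshold cannot raise a count. For the other changes the cause was not tested. Among the tested genes of the group, Adm had the largest standard error in the main fit, 0.491 in the comparisons with DMSO. It was 0.567 for Mubritinib against BGT226 and against Omipalisib. Adm was at 6 to 18 with DMSO, and the part of depth in its standard error was not tested.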

Other observations

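With AZD2014 some further genes of glycolysis and of the HIF pathway fell to low values. Of the 27 tested further genes of glycolysis and pyruvate use, 6 were lower and 1 higher. Of the 38 of the HIF pathway, 8 were lower and 5 higher. Over all genes 13.5% were lower and 6.06% higher. Sap30, a part of a histone deacetylase complex, was at 76, 53 and 63, against 131, 572.5 and 1037 as the lowest, median and highest of the DMSO samples (log2 fold change −2.78, limma adjusted p = 2.90e-08). Adpgk, a glucokinase that uses ADP, was at 10, 10 and 19, against 48, 157.5 and 301 (−3.35, limma adjusted p = 1.71e-08). Minpp1, a phosphatase that can act on a side branch of glycolysis, was at 180, 174 and 165, against 421, 594 and 1169 (−1.79, limma adjusted p = 4.19e-11). For these 3 genes every AZD2014 sample was below every DMSO sample. Ero1a, an oxidase of protein folding that is induced in low oxygen, was at 120, 113 and 155, against 333 to 695 (−1.74, limma adjusted p = 2.17e-09). Egln2, the prolyl hydroxylase of the same family as Egln1, was at 153, 192 and 177, against 408 to 914 (−1.83, limma adjusted p = 1.24e-07). Slc16a1, a lactate transporter, was at 54, 62 and 81, against 126 to 253 (−1.50, limma adjusted p = 2.11e-06). Here too the samples did not overlap. Egln2 was also the gene of its list that was lower with AZD8186, at 212, 357 and 240 (−1.23, limma adjusted p = 0.0266). The genes of these lists that were higher with AZD2014 included Cxcr4 (log2 fold change 2.53), Cited2 (0.85), Rora (0.80), Bnip3l (0.50) and Slc2a6 (0.42).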
